A study of Mus musculus with 20 samples.

Results

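The nuclear-encoded subunits of respiratory complexes II, III and IV and of the ATP synthase (complex V) were followed in CFU-E, the committed red cell progenitors of mouse bone marrow. Table rows that map to protein-coding genes were taken by symbol: the 4 Sdh subunit genes for complex II, Uqcr genes and Cyc1 for complex III, Cox4 to Cox8 genes for complex IV, and Atp5 genes under their older or newer names for complex V. Among 37748 entries, 49 matched, and 43 of these reached a value of 1 in 5 or more of 20 libraries. The same filter kept 10890 entries for testing. The 43 genes were 4 of 4 for complex II, 9 of 9 for complex III, 12 of 18 for complex IV and 18 of 18 for complex V. Usmg5 entered under its RefSeq symbol Atp5md.

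Gene expression was measured by RNA sequencing in 4 groups of 5 libraries: P95H PHZ, P95H PBS, Mx1-Cre PHZ and Mx1-Cre PBS. P95H mice were Mx1-Cre Srsf2P95H/+ animals, in which 1 allele of the splicing factor gene Srsf2 carries the P95H substitution. The control mice carried the Mx1-Cre transgene too, whose recombinase is expressed from an interferon-inducible promoter that acts in blood cells and in other tissues. Mice received saline (PBS) or phenylhydrazine (PHZ), a haemolytic agent that makes mice anaemic. The dose was 30 mg/kg, given subcutaneously on day 0 and again on day 1, and cells were sorted from the marrow on day 4. The gate was live, lineage-negative and c-Kit-high, positive for CD105 and negative for Sca-1, CD41, CD16/32 and CD150. Library names hold a separate animal number each, so p-values reflect how these mice and their libraries vary.

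Complex II, succinate dehydrogenase, oxidises succinate in the citric acid cycle and reduces ubiquinone. Complex III carries electrons from ubiquinol to cytochrome c, complex IV carries them on to oxygen, and the ATP synthase makes ATP from the proton gradient that the chain builds up. Complex II is made of nuclear-encoded subunits alone, whereas complexes III, IV and V also hold subunits encoded in mitochondrial DNA. Erythroid progenitors have active mitochondria, which also house steps of haem synthesis, and the lineage discards its mitochondria as red cells mature.

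The values are the authors' normalised signal, which has the form of TPM, a read share corrected for transcript length, multiplied by 1 factor per library. Library sums ran from 924763 to 1085047, and 10364 to 10755 entries reached a value of 1. All 14 markers of CFU-E and erythroid cells passed the filter. Kit, the receptor used in the sort, ranged from 40.9 to 71.9 in P95H PHZ, 73.9 to 107 in P95H PBS, 54.8 to 67.7 in Mx1-Cre PHZ and 87.7 to 155 in Mx1-Cre PBS. Epor, the erythropoietin receptor, lay between 126 and 165 in all 20 libraries. RNA per cell was not measured, so fewer cells of a type and less RNA per cell cannot be told apart in these bulk samples.

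The subunit genes were among the abundant transcripts of CFU-E. Averaged over the 20 libraries, the highest level was 1633 for Atp5b, the catalytic beta subunit of the ATP synthase. In complex IV it was 885 for Cox4i1, in complex III 690.4 for Uqcrh, the acidic hinge protein beside cytochrome c1, and in complex II 301 for Sdhd, a membrane anchor. The lowest level among the 43 was 12.3 for Atp5s, coupling factor B, which stood apart from the other ATP synthase genes and nearest to the filter among those that passed. The next lowest was 170.0 for Cox6b2.

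The 6 genes that did not pass were all tissue-restricted isoforms of complex IV. Cox6a2, Cox7a1 and Cox8b are the heart and skeletal muscle forms, Cox4i2 is the lung form, and Cox7b2 and Cox8c are testis forms. Cox6a2, Cox7b2 and Cox8b were listed at 0 in every library, and Cox4i2 and Cox8c each had a value in 1 library, 0.153 and 0.298. Cox7a1 had a mean of 0.366 and reached 1 in 1 library, at 1.27, where the filter asks for 5 libraries. Cox6b2, known as a testis form of Cox6b1, was the exception among the isoforms, at 136 to 162 in P95H PHZ, 166 to 227 in P95H PBS, 129 to 185 in Mx1-Cre PHZ and 172 to 199 in Mx1-Cre PBS. Cox6b1 itself lay between 594 and 920.2 in all libraries.

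Comparing PHZ with PBS in P95H mice addresses how mutant CFU-E respond to haemolytic anaemia, and subunit genes of all 4 complexes were lower after PHZ. In limma, 26 of 43 were lower and 0 higher at an adjusted p under 0.05, beside 17.7% lower and 12.6% higher among all genes tested. With the authors' library factor divided out, 14 were lower and 0 higher, beside 10.3% lower and 23.6% higher among all genes. Fold changes were small, from -0.83 to -0.02 on the log2 scale, with a median of -0.21 against -0.02 for all genes. All 43 were negative, as were 38 with the factor divided out and 41 after quantile normalization. In 15 of 43 genes every P95H PHZ library lay below every P95H PBS library, beside 10% of all genes.

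In Mx1-Cre mice, the same comparison describes the control response, and fewer subunit genes passed. Of 43 genes 11 were lower and 1 higher after PHZ, beside 14.9% lower and 17% higher among all genes tested. With the library factor divided out, 10 were lower and 1 higher, beside 11.2% lower and 20.5% higher among all genes. The median log2 fold change was -0.07 against -0.002 for all genes, and 39 of 43 were negative, a count that was 25 of 43 with the library factor divided out. In 5 genes every Mx1-Cre PHZ library lay below every Mx1-Cre PBS library, beside 9.82% of all genes. Between the genotypes, 9 genes were called lower in both: Uqcrh, Cox6b2, Cox6c, Cox7a2l, Cox7b, Atp5e, Atp5h, Atp5j2 and Atp5mpl. These are 34.6% of the genes called lower in P95H and 81.8% of those called lower in Mx1-Cre. Across the 43 genes the fold changes of the comparisons, which share no library, had a Spearman rho of 0.79, the same as the 0.79 across all 10890 genes tested.

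Some calls rested on the scaling or on single libraries. With the library factor divided out, the P95H calls of Sdhb, Uqcrfs1, Uqcrq, Cox4i1, Cox5a, Cox5b, Cox8a, Atp5d, Atp5f1, Atp5g3, Atp5j and Atp5o were lost, and in Mx1-Cre that of Usmg5. Cox4i1, Cox8a, Atp5d and Atp5g3 were also lost after quantile normalization in P95H, and Cyc1 in Mx1-Cre. Of the 26 genes called in P95H, 18 were called whichever of the 20 libraries was left out. Without P95H PBS replicate 1, calls were lost for Uqcrfs1, Uqcrq, Cox4i1, Cox5a, Cox8a, Atp5f1 and Atp5g3, and 19 genes were called. Without P95H PHZ replicate 3, Cox4i1, Cox5a, Cox8a, Atp5f1, Atp5g3 and Atp5j were lost, and 20 were called. Over all libraries left out in turn, the highest adjusted p of these 8 genes ran from 0.0508 (Atp5j) to 0.11 (Atp5g3), with the other libraries that ended a call being P95H PHZ replicates 1, 2 and 5 and P95H PBS replicates 2, 3 and 5. Of the 12 genes called in Mx1-Cre, 8 were called whichever library was left out, and Cyc1, Cox7b, Atp5s and Usmg5 were not. Cox7b was lost without Mx1-Cre PHZ replicates 2, 3 or 4 or Mx1-Cre PBS replicates 3 or 4 (highest adjusted p = 0.0635), and Usmg5 without Mx1-Cre PHZ replicates 2 or 3 or Mx1-Cre PBS replicates 3, 4 or 5 (highest adjusted p = 0.0936).

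**Figure D1:**
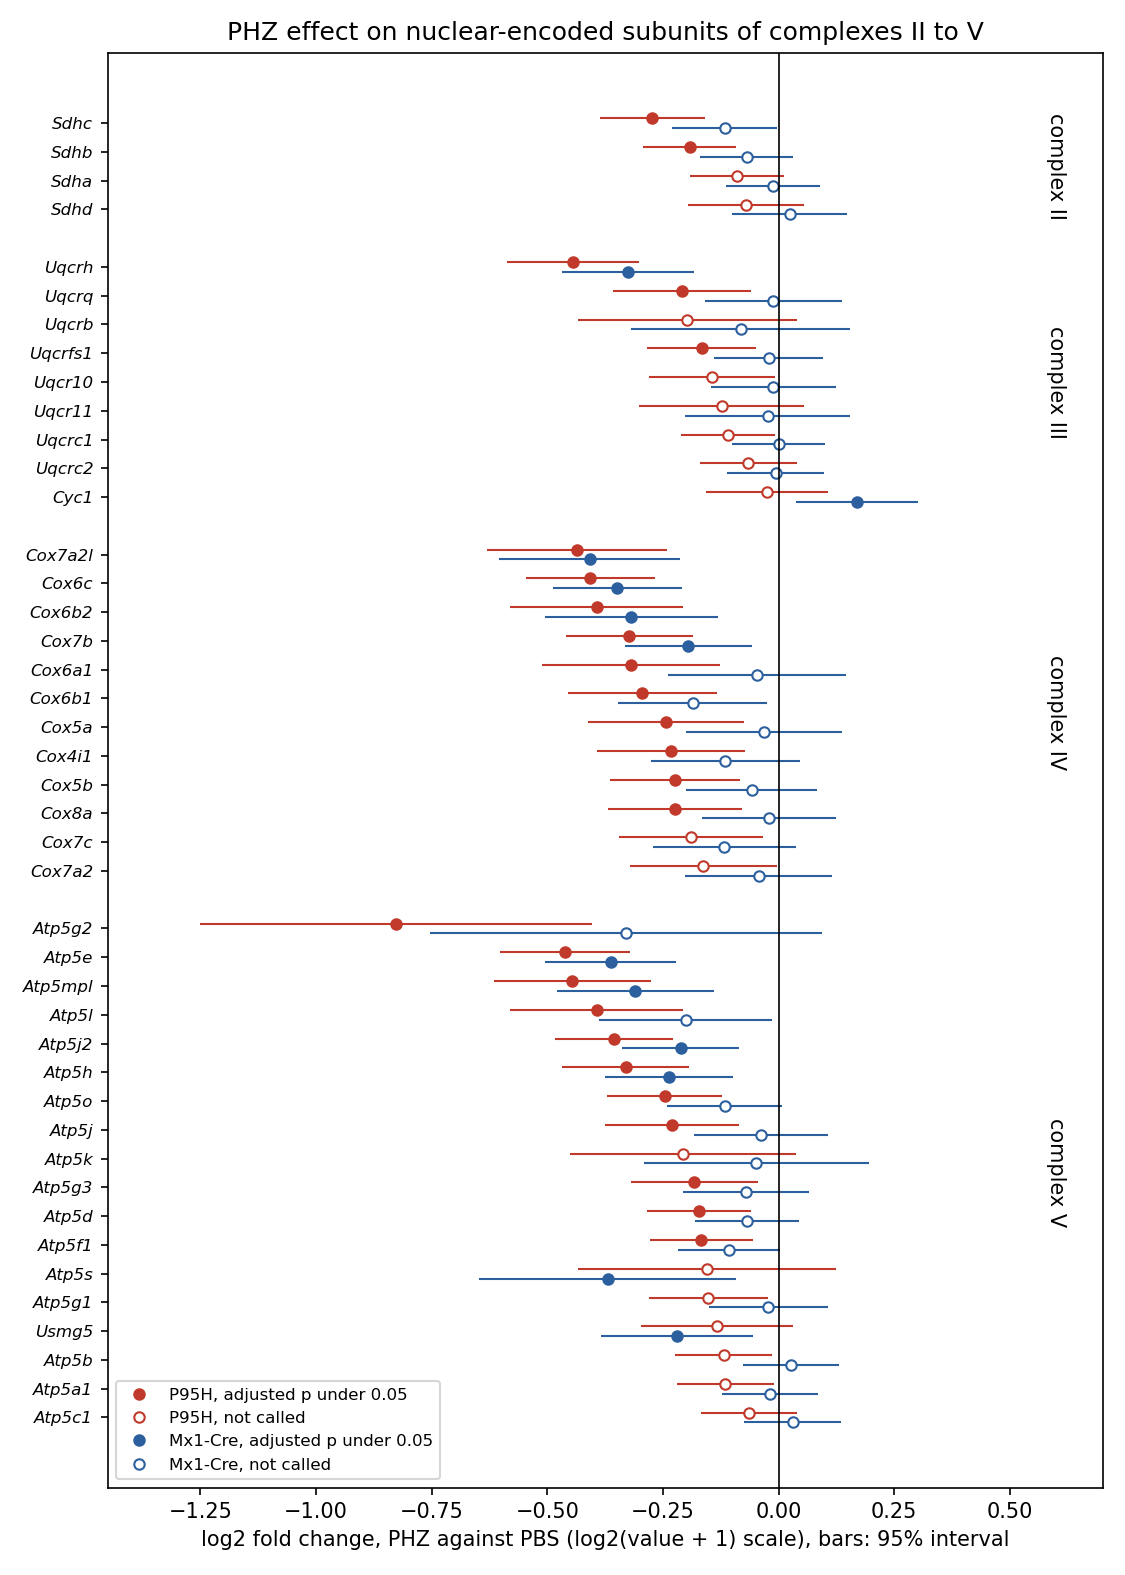
Log2 fold change of each of the 43 subunit genes, PHZ against PBS, in P95H (red) and Mx1-Cre (blue) CFU-E, with 95% intervals and filled points where the adjusted p was under 0.05. All P95H points lie below 0, and Cyc1 is the single gene called higher, in Mx1-Cre.

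Complex II had 2 of 4 genes lower after PHZ in P95H and 0 of 4 in Mx1-Cre, beside 17.7% and 14.9% of all genes. The medians of the complex were -0.14 and -0.04. Sdhc, a membrane anchor that helps hold the haem of the complex, had 199, 182, 175, 194 and 189 in P95H PHZ, against 249, 212, 212, 230.0 and 235 in P95H PBS. All P95H PHZ values of Sdhc lay below all P95H PBS values (log2 fold change -0.27, SE 0.0538, adjusted p = 0.000601). In Mx1-Cre, Sdhc averaged 199 ± 13.7 after PHZ and 216 ± 2.92 after PBS (SD, n = 5 each; log2 fold change -0.12, SE 0.0538, adjusted p = 0.103). Sdhb, the iron-sulfur subunit, was the other gene called lower in P95H (log2 fold change -0.19, SE 0.0475, adjusted p = 0.00401), again without overlap, though not with the library factor divided out (highest adjusted p = 0.197 over 13 other settings). The flavoprotein gene Sdha and the second anchor gene Sdhd were called in neither genotype. Sdhd averaged 299 ± 15.8 in P95H PHZ and 314 ± 22.8 in P95H PBS (log2 fold change -0.07, SE 0.0590, adjusted p = 0.396).

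Complex III had 3 of 9 genes lower and 0 higher in P95H, beside 17.7% lower and 12.6% higher among all genes. In Mx1-Cre 1 of 9 was lower and 1 higher, both under the 14.9% lower and 17% higher among all genes. Its median was -0.14 in P95H and -0.01 in Mx1-Cre. Uqcrh (ENSMUSG00000063882, chromosome 4, 116066965 to 116075071, minus strand) had 576, 549.9, 563, 611 and 546 in P95H PHZ, against 875, 758, 689, 759 and 802 in P95H PBS. In Mx1-Cre it had 594, 606, 621, 603 and 719.6 after PHZ, against 729, 740.5, 759, 878 and 831 after PBS. PHZ libraries lay below PBS libraries without overlap in both genotypes, and the log2 fold change was -0.44 in P95H (SE 0.0674, limma adjusted p = 4.10e-05) and -0.32 in Mx1-Cre (SE 0.0674, adjusted p = 0.00102).

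Cyc1, cytochrome c1, the haem protein that Uqcrh adjoins, went the other way in the controls. Cyc1 (ENSMUSG00000022551, chromosome 15, 76343523 to 76346260, plus strand) had 317, 318, 367, 337 and 361 in Mx1-Cre PHZ, against 310.4, 308, 311, 264 and 319.9 in Mx1-Cre PBS (log2 fold change 0.17, SE 0.0620, adjusted p = 0.0415). The ranges overlapped, and the call was lost when any of 7 libraries was left out (highest adjusted p = 0.143): Mx1-Cre PHZ replicates 3, 4 or 5 or Mx1-Cre PBS replicates 1, 2, 3 or 4. It was also lost under 7 of 13 other settings, quantile normalization among them. In P95H, Cyc1 averaged 305 ± 18.8 after PHZ and 311 ± 19.7 after PBS (log2 fold change -0.02, SE 0.0620, adjusted p = 0.795). The core subunit genes Uqcrc1 and Uqcrc2 and the small subunit genes Uqcr10, Uqcr11 and Uqcrb passed in neither genotype. Uqcrfs1, the Rieske iron-sulfur protein, and Uqcrq, a ubiquinone-binding subunit, were the other genes called lower in P95H, at -0.17 and -0.21.

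**Figure D2:**
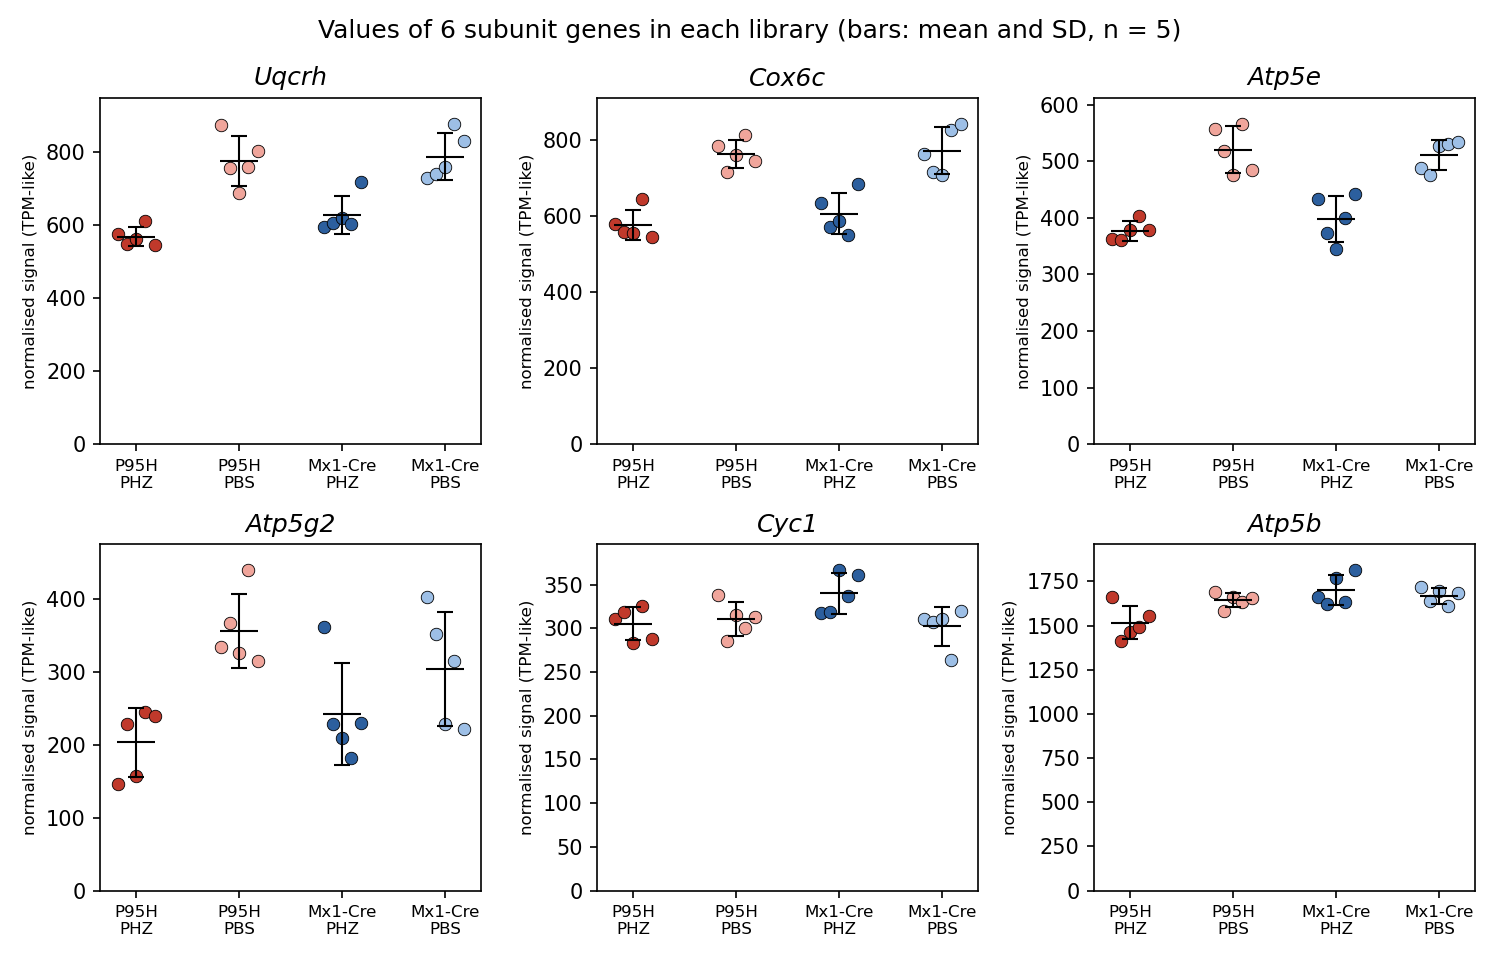
Normalised signal (TPM-like, linear axis from 0) of 6 subunit genes in each of the 20 libraries, with the group mean and SD of 5 libraries. Uqcrh, Cox6c and Atp5e lie lower in PHZ than in PBS libraries of both genotypes without overlap, Atp5g2 does so in P95H, and the ranges of Cyc1 and Atp5b overlap between treatments.

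Complex IV had 10 of 12 genes lower in P95H and 4 of 12 in Mx1-Cre, beside 17.7% and 14.9% of all genes. The medians of the complex were -0.27 and -0.12. Cox6c (ENSMUSG00000014313, chromosome 15, 35925886 to 35938246, minus strand), a small inner-membrane subunit, had 577, 557, 554, 644 and 545 in P95H PHZ, against 782, 716, 759, 811 and 745 in P95H PBS. In Mx1-Cre it had 634, 571, 586, 550.3 and 685 after PHZ, against 762, 716, 706, 826 and 842 after PBS. All PHZ libraries lay below all PBS libraries in each genotype, at -0.41 in P95H (SE 0.0658, limma adjusted p = 8.28e-05) and -0.35 in Mx1-Cre (SE 0.0658, adjusted p = 0.000429).

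Cox7a2l, known as a factor that joins complexes III and IV into supercomplexes and a relative of Cox7a2, was also lower in both genotypes. It had 197, 183, 182, 206 and 197 in P95H PHZ, against 241, 242, 232, 334 and 268 in P95H PBS (log2 fold change -0.44, SE 0.0920, adjusted p = 0.00112). It had 172, 160.4, 198, 169 and 210.2 in Mx1-Cre PHZ, against 226, 235, 226, 288 and 234 in Mx1-Cre PBS (log2 fold change -0.41, SE 0.0920, adjusted p = 0.00205). Neither genotype showed overlap between treatments. Cox7a2, the complex IV subunit proper, averaged 337 ± 40.3 in P95H PHZ and 377 ± 36.4 in P95H PBS and was called in neither genotype (log2 fold change -0.16, SE 0.0746, adjusted p = 0.104 in P95H).

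Both forms of Cox6b, the subunit on the intermembrane side that faces cytochrome c, were lower in P95H. Cox6b1 averaged 660.3 ± 53.8 in P95H PHZ and 811 ± 80.1 in P95H PBS (SD, n = 5 each; log2 fold change -0.29, SE 0.0761, adjusted p = 0.00547). Cox6b2 averaged 148 ± 11.0 in P95H PHZ and 196 ± 21.7 in P95H PBS (log2 fold change -0.39, SE 0.0880, adjusted p = 0.00182), and 149.8 ± 22.9 in Mx1-Cre PHZ and 186 ± 12.5 in Mx1-Cre PBS (log2 fold change -0.32, SE 0.0880, adjusted p = 0.00870). In Mx1-Cre, Cox6b1 was not called (log2 fold change -0.19, SE 0.0761, adjusted p = 0.0674).

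Among the other complex IV genes, Cox6a1, the widely expressed form of subunit VIa, had 693, 705, 545, 774 and 580.3 in P95H PHZ, against 983, 769, 711, 814 and 829.6 in P95H PBS (log2 fold change -0.32, SE 0.0907, adjusted p = 0.0104). The ranges overlapped. In Mx1-Cre, Cox6a1 averaged 816 ± 69.5 after PHZ and 841 ± 46.9 after PBS (log2 fold change -0.05, SE 0.0907, adjusted p = 0.740). Cox4i1, which contacts the catalytic core and is a site of regulation by adenine nucleotides, and Cox8a, a small membrane subunit, were lower in P95H at -0.23 (SE 0.0757, limma adjusted p = 0.0237) and -0.22 (SE 0.0683, adjusted p = 0.0167), and their values in Mx1-Cre were -0.12 and -0.02 (adjusted p = 0.264 and 0.840). Both P95H calls were lost with the library factor divided out. Cox7b was lower in both genotypes, at -0.32 in P95H and -0.20 in Mx1-Cre. Cox7c and Cox7a2 were the complex IV genes not called in P95H.

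Complex V had 11 of 18 genes lower in P95H and 6 of 18 in Mx1-Cre, beside 17.7% and 14.9% of all genes. The medians of the complex were -0.19 and -0.11. Atp5e (ENSMUSG00000016252, chromosome 2, 174461072 to 174464105, minus strand), the epsilon subunit at the foot of the catalytic head's central stalk, had the smallest p of the 43 genes in both genotypes. It had 362, 361, 379, 404 and 379 in P95H PHZ, against 558, 519, 475, 567 and 485 in P95H PBS. It had 433, 373, 345, 399 and 442 in Mx1-Cre PHZ, against 489, 475, 526, 531 and 534 in Mx1-Cre PBS. No PHZ library reached a PBS library in either genotype, and the log2 fold change was -0.46 in P95H (SE 0.0667, limma adjusted p = 2.35e-05) and -0.36 in Mx1-Cre (SE 0.0667, adjusted p = 0.000332).

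The large subunits of the same catalytic head did not pass. Atp5b had 1661, 1414, 1461, 1493 and 1556 in P95H PHZ, against 1691, 1584, 1659, 1635 and 1659 in P95H PBS (log2 fold change -0.12, SE 0.0490, adjusted p = 0.0704). In Mx1-Cre it averaged 1700.4 ± 86.4 after PHZ and 1669 ± 44.5 after PBS (log2 fold change 0.03, SE 0.0490, adjusted p = 0.727). The alpha and gamma subunit genes Atp5a1 and Atp5c1 were called in neither genotype, and Atp5d, the delta subunit, was lower in P95H at -0.17 (adjusted p = 0.0174), a call lost with the library factor divided out. Within a library, the ratio of Atp5e to Atp5b, which no library factor can change, was 0.249 ± 0.0199 in P95H PHZ and 0.317 ± 0.0260 in P95H PBS (SD, n = 5 each). It was 0.235 ± 0.0247 in Mx1-Cre PHZ and 0.306 ± 0.0188 in Mx1-Cre PBS, without overlap between treatments in either genotype. That pair of genes was chosen after the values were seen, and the ratio was not tested.

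Subunit c, which forms the rotating ring, is made from the 3 genes Atp5g1, Atp5g2 and Atp5g3, whose mature proteins are the same and whose import signals differ. Atp5g2 (ENSMUSG00000062683, chromosome 15, 102662864 to 102672352, minus strand) had 147, 228, 158, 246 and 240.0 in P95H PHZ, against 334, 367, 326, 441 and 315 in P95H PBS, without overlap. Its log2 fold change was the most negative of the 43 (log2 fold change -0.83, SE 0.200, adjusted p = 0.00421; 95% interval -1.25 to -0.40). In Mx1-Cre it had 363, 229, 209, 181 and 229.5 after PHZ, against 404, 352, 229, 316 and 222 after PBS, a wide spread with overlap that did not pass (log2 fold change -0.33, SE 0.200, adjusted p = 0.225). Atp5g3, the most abundant of the 3 genes, averaged 836 ± 60.8 in P95H PHZ and 948 ± 71.3 in P95H PBS (log2 fold change -0.18, SE 0.0643, adjusted p = 0.0362). Dividing out the library factor ended that call. Atp5g1 averaged 601 ± 42.2 in P95H PHZ and 667 ± 35.6 in P95H PBS and was not called (log2 fold change -0.15, SE 0.0607, adjusted p = 0.0619). The difference between Atp5g2 and the other 2 genes was not tested.

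Subunits of the stator and the membrane part of the ATP synthase made up most of the remaining calls. Atp5mpl, a small membrane proteolipid, averaged 401 ± 42.2 in P95H PHZ and 546 ± 38.5 in P95H PBS (log2 fold change -0.45, SE 0.0802, adjusted p = 0.000252), and 430.4 ± 53.0 in Mx1-Cre PHZ and 532 ± 41.9 in Mx1-Cre PBS (log2 fold change -0.31, SE 0.0802, adjusted p = 0.00565). Atp5h, the stator subunit d, was -0.33 in P95H (adjusted p = 0.000585) and -0.24 in Mx1-Cre (adjusted p = 0.00814). Atp5l, subunit g of the membrane part, averaged 502 ± 29.6 in P95H PHZ and 663 ± 85.2 in P95H PBS (log2 fold change -0.39, SE 0.0880, adjusted p = 0.00183), without overlap. Atp5j2, subunit f, was lower in both genotypes, and Atp5f1 (subunit b), Atp5j (coupling factor 6) and Atp5o (the subunit named for oligomycin sensitivity) were lower in P95H. Atp5s and Usmg5 were called lower in Mx1-Cre and not in P95H. Atp5s had 13.7, 9.42, 12.3, 11.3 and 10.9 in Mx1-Cre PHZ, against 17.6, 11.3, 14.8, 20.7 and 12.8 in Mx1-Cre PBS, with overlap (log2 fold change -0.37, SE 0.131, adjusted p = 0.0355), and its call was lost without any one of 6 libraries (highest adjusted p = 0.131), Mx1-Cre PHZ replicates 2, 4 or 5 or Mx1-Cre PBS replicates 1, 3 or 4.

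Whether the genotypes differed in their response was tested directly. In the test of the difference between the PHZ effects, 0 of 43 subunit genes and 0 of 10890 genes passed in limma (percent called 0, lowest adjusted p = 0.798). At an unadjusted p under 0.05 there were 4 subunit genes (9.3%) and 577 genes in all (5.3%). The 4 were Cyc1, Atp5b, Cox8a and Cox6a1, at -0.19, -0.15, -0.20 and -0.27. The effect was more negative in P95H for 41 of 43 subunit genes and for 57.7% of all genes, with a median difference of -0.12 among subunits and -0.03 among all genes. With the library factor divided out the count was 38, and the medians were -0.06 among subunits and 0.03 among all genes. After quantile normalization it was 33, and the medians were -0.04 and 0.00061. Without Mx1-Cre PHZ replicate 5 it was 39, and the medians were -0.07 and -0.03. Atp5s and Usmg5 were the 2 genes with the opposite sign (0.22 and 0.09). Calls made in P95H and not in Mx1-Cre are thus not shown to differ between the genotypes.

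P95H and Mx1-Cre were also compared within each treatment. Under PHZ, 2 of 43 subunit genes were lower in P95H, beside 4.37% of all genes lower and 1.1% higher. In 2 of 43 genes, Atp5j and Atp5l, every P95H PHZ library lay below every Mx1-Cre PHZ library, beside 5.38% of all genes. Atp5j had 285, 287, 241, 278 and 259 in P95H PHZ, against 294, 308, 328, 313 and 355 in Mx1-Cre PHZ, without overlap (log2 fold change -0.24, SE 0.0682, adjusted p = 0.0404). Cox6a1 had 693, 705, 545, 774 and 580.3 in P95H PHZ, against 742, 828, 889, 746 and 874 in Mx1-Cre PHZ, with overlap (log2 fold change -0.31, SE 0.0907, adjusted p = 0.0463). Neither call passed with the library factor divided out, with TMM factors (trimmed mean of M-values) or after quantile normalization, and with the factor divided out 1.33% of all genes were lower and 1.21% higher. Each was also lost when single libraries were left out, 7 of 20 libraries for Atp5j (highest adjusted p = 0.114) and 12 of 20 for Cox6a1 (highest adjusted p = 0.131). For Atp5j these were P95H PHZ replicates 3, 4 and 5, Mx1-Cre PHZ replicates 3, 4 and 5 and Mx1-Cre PBS replicate 3. For Cox6a1 they were P95H PHZ replicates 3 and 5, P95H PBS replicates 2, 4 and 5, Mx1-Cre PHZ replicates 2, 3 and 5 and Mx1-Cre PBS replicates 1, 2, 3 and 5.

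Under PBS, 0 of 43 subunit genes passed in limma, beside 1.12% of all genes lower and 0.358% higher in P95H. The median log2 fold change was 0.03 against -0.03 for all genes, and 30 of 43 were positive, beside 4331 of 10890 genes in all. With the granulocyte marker level described further on as a covariate, 22 of 43 were negative. At an unadjusted p under 0.05 there was 1 gene, Atp5s, with 11.7 ± 1.34 in P95H PBS and 15.4 ± 3.76 in Mx1-Cre PBS (log2 fold change -0.35, SE 0.131, adjusted p = 0.220). For Atp5e the interval of the difference was -0.12 to 0.17, and for Uqcrh it was -0.16 to 0.12, on the log2 scale.

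As a share of all signal in a library, which no library factor changes, the 43 genes together held 2.03% ± 0.0627 in P95H PHZ and 2.21% ± 0.0418 in P95H PBS (SD, n = 5 each). Every P95H PHZ library, at 1.97% to 2.13%, lay below every P95H PBS library, at 2.16% to 2.26%. They held 2.08% ± 0.0742 in Mx1-Cre PHZ and 2.17% ± 0.0692 in Mx1-Cre PBS. The Mx1-Cre ranges overlapped, at 2.03% to 2.21% after PHZ and 2.10% to 2.28% after PBS.

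Markers of granulocytes and monocytes moved with the treatment. The sort gate excludes CD16/32-positive cells. Of 18 markers, 15 passed the filter. Among them Csf3r stayed below 1 in every P95H PHZ library and passed through other groups. Its call is therefore set aside, though it stays in the mean level given next. All others of the 15 were lower after PHZ in P95H, beside 17.7% of all genes. In Mx1-Cre 1 of 15 was lower, beside 14.9% of all genes. The mean log2 marker level was 3.26 ± 0.576 in P95H PHZ and 5.06 ± 0.842 in P95H PBS (exact two-sided permutation test, p = 0.00794, the smallest that 10 libraries allow, adjusted p = 0.0381 over 24 tests). It was 3.21 ± 0.914 in Mx1-Cre PHZ and 4.15 ± 0.396 in Mx1-Cre PBS (exact permutation p = 0.0635, adjusted p = 0.169). The summed signal of all 18 ran from 161 to 605 in P95H PHZ, 572 to 2508 in P95H PBS, 153 to 1092 in Mx1-Cre PHZ and 460.5 to 967 in Mx1-Cre PBS. Of the 18 markers, F13a1 was listed at 0 in at least 1 P95H PHZ library.

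With that marker level as a covariate in the fit, 6 subunit genes were lower after PHZ in P95H, beside 5.16% of all genes, and 5 in Mx1-Cre, beside 9.87% of all genes. The P95H median was then -0.18, with 42 of 43 negative. The genes that remained called in P95H were Uqcrh, Cox6c, Cox7b, Atp5e, Atp5g2 and Atp5j2. Without P95H PBS replicates 4 and 5, the libraries highest in these markers, 19 subunit genes were lower in P95H, beside 11.6% of all genes. Of 6 lymphoid markers, Cd79a and Ighm passed the filter through PBS libraries alone, so their calls are not counted here. The summed signal of all 6 was at most 1.52 in P95H PHZ, 17.7 in P95H PBS, 1.28 in Mx1-Cre PHZ and 5.25 in Mx1-Cre PBS. Cd3e, the T cell marker, was listed at 0 in all libraries but 1 of P95H PBS. Of 6 megakaryocyte markers 3 passed: Itga2b, Gp9 and Vwf. Itga2b was over 1 in every PBS library and averaged 0.92 in P95H PHZ and 0.82 in Mx1-Cre PHZ. It thus passed mainly through PBS libraries, and calls of this list are not counted here either. Of 6 basophil and mast cell markers Gata2 alone passed and was lower in both genotypes. Cpa3, Mcpt8, Prss34, Fcer1a and Ms4a2 averaged at most 0.605 in any group, so the Gata2 calls alone are no measure of these cells. Of 6 macrophage markers Cd68 alone passed and was called in neither genotype. Of the 14 CFU-E and erythroid markers, 5 were lower and 2 higher in P95H, and 3 lower and 2 higher in Mx1-Cre, against all-gene shares of 17.7% lower and 12.6% higher in P95H and 14.9% lower and 17% higher in Mx1-Cre. The part of these markers in the subunit result was not tested beyond the fits given here.

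**Figure D3:**
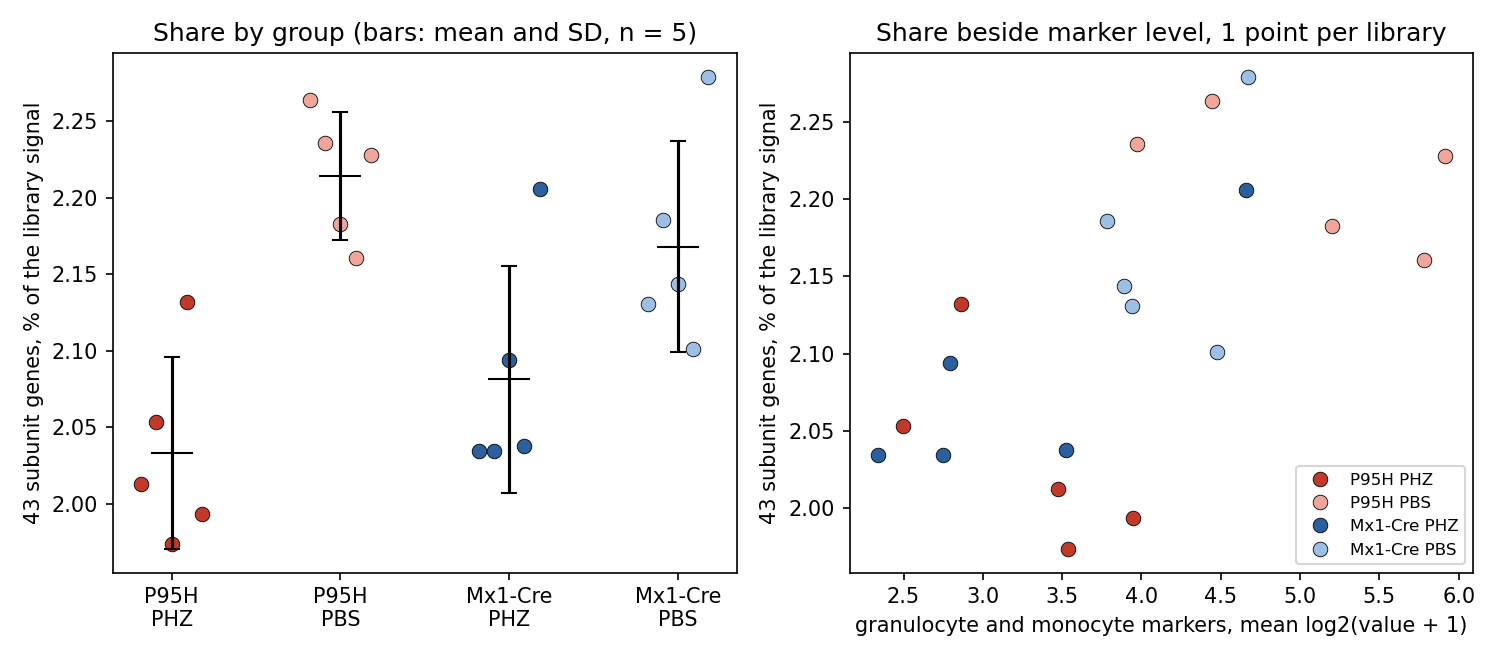
Left, share of all signal held by the 43 subunit genes in each library, in percent (axis not from 0), with the group mean and SD of 5 libraries. Right, the same share beside the mean log2 level of granulocyte and monocyte markers, 1 point per library. Every P95H PBS library lies above every P95H PHZ library on both axes. The nearest in marker level are P95H PHZ replicate 5 and P95H PBS replicate 2 (3.95 and 3.97). Within P95H PBS, the libraries lowest in the markers, replicates 1 and 2, have the highest shares (2.26% and 2.24%), and replicate 5, the highest in the markers, has 2.23%. In Mx1-Cre PHZ and in Mx1-Cre PBS, replicate 5 is highest in its group both in the markers (4.66 and 4.67) and in the share (2.21% and 2.28%). A link between marker level and share was not tested.

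The subunit genes differ in length, and the short ones had the more negative fold changes in the median. Across the 43, coding length and log2 fold change had a Spearman rho of 0.47 in P95H and 0.41 in Mx1-Cre, given as a description, since the genes share libraries. Across 9969 other protein-coding genes tested it was 0.19 in P95H and 0.06 in Mx1-Cre. Of 26 subunit genes under 450 coding bases, 18 were lower in P95H and 9 in Mx1-Cre, with medians of -0.24 and -0.10. Of 17 longer ones, 8 were lower in P95H and 2 in Mx1-Cre, with medians of -0.15 and -0.02. Atp5e is the shortest, with 156 coding bases, and Sdha the longest, with 1992.

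Other short genes, complex I subunits among them, were also read, with a floor on the mean level and no matching of levels above it. Among 169 other genes under 450 coding bases whose mean reached that of Cox6b2, 50.3% were lower after PHZ in P95H and 23.1% in Mx1-Cre, beside 69.2% and 34.6% of the short subunit genes. Among 708 longer genes over the same floor, 21.8% were lower in P95H and 12.3% in Mx1-Cre. The part of transcript length in the subunit result was not tested.

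**Figure D4:**
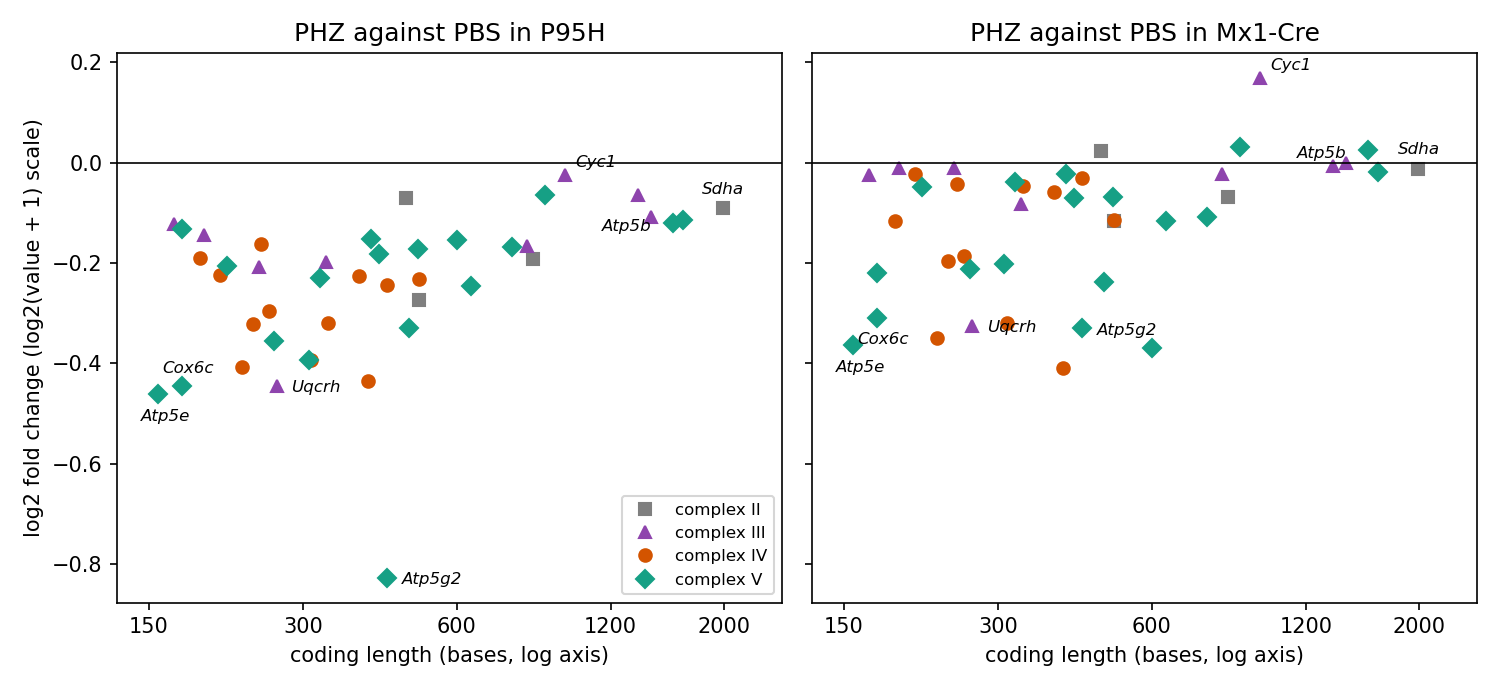
Log2 fold change, PHZ against PBS, of each of the 43 subunit genes against its coding length in bases (log axis), in P95H (left) and Mx1-Cre (right), with symbols for complexes II to V. In P95H the long genes Atp5b and Sdha lie at -0.12 and -0.09. Short ones spread widely there, from Atp5e (156 coding bases) at -0.46 to Uqcr11 (168) and Uqcr10 (192) at -0.12 and -0.14, close to the long genes.

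Many respiratory chain promoters carry sites for NRF1 (nuclear respiratory factor 1), GABPA (also called NRF2) or YY1, factors known to drive nuclear genes of mitochondria. RefSeq promoters, here the 250 bases before the annotated start in GRCm38.p6, were found for 34 of the 43 genes. On either strand, the NRF1 letters, GCGCA and GCGC with any 1 base between, stood in 7 of 34 (20.6%) and in 5.84% of 17492 genes with a promoter. The GABPA letters CCGGAAGT stood in 3 of 34 (8.82%) and in 4.26% of all genes, and the YY1 letters AAGATGGCG in 1 of 34 (2.94%), Atp5j, and in 0.84%. NRF1 letters were in Sdha, Sdhd, Cox6a1, Atp5c1, Atp5g2, Atp5h and Atp5k, and GABPA letters in Uqcr11, Uqcrh and Atp5h. Of 7 matched genes called lower in both genotypes, 2 held the GABPA letters and 1 the NRF1 letters, and of 13 matched genes not called lower in P95H these were 1 and 4.

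The promoters shown are of the 4 genes with the most negative fold changes in P95H among the 34, 5′ to 3′ on the gene's own strand, with the motif letters in capitals. They are Atp5g2 (chr15:102671048-102671297, minus strand), Atp5e (chr2:174464102-174464351, minus), Uqcrh (chr4:116075071-116075320, minus) and Cox7a2l (chr17:83514334-83514583, minus). The Atp5g2 and Cox7a2l windows lie inside the longer spans that GENCODE gives these genes. Atp5g2 holds an NRF1 match, Uqcrh ends its window with a GABPA match on the reverse strand, and Atp5e and Cox7a2l hold none of the 3 motifs.
Atp5g2: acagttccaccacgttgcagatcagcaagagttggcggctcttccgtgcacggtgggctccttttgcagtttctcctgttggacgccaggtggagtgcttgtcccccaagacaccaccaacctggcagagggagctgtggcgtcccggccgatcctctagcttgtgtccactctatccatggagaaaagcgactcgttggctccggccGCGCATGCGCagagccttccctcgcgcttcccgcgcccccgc
Atp5e: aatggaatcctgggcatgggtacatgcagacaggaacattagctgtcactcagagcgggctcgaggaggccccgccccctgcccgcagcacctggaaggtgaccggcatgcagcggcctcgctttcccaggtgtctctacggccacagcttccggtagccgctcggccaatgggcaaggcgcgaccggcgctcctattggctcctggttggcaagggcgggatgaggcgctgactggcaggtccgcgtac
Uqcrh: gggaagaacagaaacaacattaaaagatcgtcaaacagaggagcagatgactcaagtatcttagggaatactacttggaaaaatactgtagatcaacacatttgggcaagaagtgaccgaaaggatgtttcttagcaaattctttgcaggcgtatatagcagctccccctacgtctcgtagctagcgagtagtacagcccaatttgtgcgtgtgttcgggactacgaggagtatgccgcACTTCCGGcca
Cox7a2l: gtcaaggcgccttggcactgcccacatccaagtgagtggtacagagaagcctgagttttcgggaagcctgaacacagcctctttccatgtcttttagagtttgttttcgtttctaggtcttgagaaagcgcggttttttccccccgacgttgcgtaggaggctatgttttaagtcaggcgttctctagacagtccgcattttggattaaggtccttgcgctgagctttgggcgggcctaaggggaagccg

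Of the factors themselves, Gabpa was higher after PHZ in both genotypes (0.32, adjusted p = 0.000596 in P95H, and 0.21, adjusted p = 0.0139 in Mx1-Cre), opposite in sign to most subunit genes. Gabpa lies on the other strand over part of Atp5j, and no source used here says whether the authors counted by strand. Yy1 was higher after PHZ in Mx1-Cre (0.17, adjusted p = 0.0136) and lower in P95H than in Mx1-Cre under PHZ (-0.23, adjusted p = 0.00902), and so was Ppargc1b, a coactivator of mitochondrial genes, in the second comparison (-0.45, adjusted p = 0.00695). Of 13 regulators of mitochondrial biogenesis that passed the filter, 1 was higher and 0 lower in P95H after PHZ, and 2 higher and 0 lower in Mx1-Cre, counts that are under the shares of all genes called. Under PHZ, 2 of the 13 were lower in P95H than in Mx1-Cre, beside 4.37% of all genes. Calls for these genes and for the lists that follow were made on the deposited scale, and other scalings were not tried for them.

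Genes that work with the subunits were read from lists, beside the shares of all genes called after PHZ, 17.7% lower and 12.6% higher in P95H and 14.9% lower and 17% higher in Mx1-Cre. Of 37 subunits of complex I, the NADH dehydrogenase, 24 were lower and 0 higher after PHZ in P95H (median -0.25), and 8 lower and 0 higher in Mx1-Cre (median -0.11). They include Ndufs4 (log2 fold change -0.41, SE 0.0554, adjusted p = 9.48e-06 in P95H) and Ndufa1 (log2 fold change -0.44, SE 0.0841, adjusted p = 0.000497 in P95H). Of 38 assembly factors of complexes II to V, 6 were lower and 1 higher in P95H, and 4 lower and 5 higher in Mx1-Cre, with a median of -0.05 in P95H. Each of these 4 shares of the assembly factors is under that of all genes. Cox17, the copper chaperone of complex IV, was lower in both genotypes (-0.45, adjusted p = 1.23e-05 in P95H, and -0.31, adjusted p = 0.000841 in Mx1-Cre), and Coa5 was higher in both (0.28 and 0.42). Under PHZ, 2 of the 38 were lower in P95H than in Mx1-Cre, beside 4.37% of all genes, and Uqcc2, an assembly factor of complex III, was 1 of them (log2 fold change -0.39, SE 0.0784, adjusted p = 0.00617).

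Of 7 carriers and regulators, 5 were lower after PHZ in P95H, and 6 were lower and 1 higher in Mx1-Cre. These 7 include the subunit gene Usmg5, and Ndufa4, which its symbol also placed among the 37 complex I genes. Etfa, Etfb and Etfdh, which feed electrons from fatty acid oxidation to ubiquinone, were lower in both, with Etfb at -0.50 in P95H (adjusted p = 6.17e-05) and -0.41 in Mx1-Cre (adjusted p = 0.000516). Atpif1, the inhibitor protein of the ATP synthase, was lower at -0.57 in P95H (adjusted p = 0.000338) and -0.37 in Mx1-Cre (adjusted p = 0.0119). Of the 6 mitochondrial DNA genes of complexes III, IV and V, limma called 0 in either genotype, with medians of 0.01 in P95H and -0.13 in Mx1-Cre. Their spread between libraries was wide, with a summed signal of 30624 to 55838 in P95H PHZ and 34012 to 60285 in P95H PBS. The SE of a fold change reached 0.368 for mt-Atp8, against 0.200 for Atp5g2, the highest among the nuclear subunit genes.

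Some subunit values can hold reads of other genes. Of the 43 genes, 18 overlap another annotated gene, and for 8 of them that gene had a mean of at least 1, on the other strand in each case. These pairs include Atp5a1 with Haus1, Cox4i1 with Emc8, Cox6c with Vps13b and Uqcrh with the pseudogene Gm12854, whose mean was 2.01. Reads of short subunit genes can also be split with processed pseudogenes, and 7 pseudogene entries named after these genes had means of at most 1.34.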

How the data were processed

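RNA sequencing of sorted CFU-E gave 20 libraries in 4 groups of 5. The authors deposited 1 table of normalised signal with 37748 entries, and read counts were not used here, so the depth behind a value is unknown. Divided by 1 factor per library (0.940 to 1.10), all deposited signal values above 0 are whole numbers of steps of 0.01, to within 0.01 of a step, the form of TPM rounded to that step. The submitters' processing notes name Bowtie, RSEM 1.2.4, TopHat, TopHat2 2.0.8b, and as builds mm10, GRCm38, hg19 and GRCh37, with no role or order.

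The 10890 entries that reached 1 in 5 or more libraries were tested on log2(value + 1) with limma 3.58.1 in R 4.3.3, with 1 mean per group over all 20 libraries, an intensity trend and robust moderation. Fold changes are on that scale, and p-values are two-sided and Benjamini-Hochberg adjusted over all 10890 entries, with a threshold of 0.05. The script was tested on simulated data. Symbols and coordinates come from GENCODE vM21 (GRCm38), which named 35986 entries. Marker means were compared by exact permutation over all splits of 10 libraries. Alternatives were other scalings (factor divided out, TMM without weights, quantile), pseudocounts, filters, fits and left-out libraries. Python 3.11.15 with pandas 2.3.3, numpy 2.4.6 and matplotlib 3.10.9 did the rest.

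The members and lists were chosen with earlier results of these data known. Genes named with values were the called members of largest change in each comparison, the most abundant member and the called member of smallest p in each complex, the paralogue groups, and up to 4 called genes of each other list. The other members given with values, among them Sdhb, Uqcrfs1, Uqcrq, Cox7b, Atp5d and Usmg5, as well as mt-Atp8, Cd3e and Cd68, were chosen with their values in view.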

Additional observations from a re-analysis of the deposited data

Results flagged for a closer look

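In 17 of 172 sets of 5 libraries (43 genes in 4 groups) 1 library lay far from the other 4, with a gap over 0.71 of the range. Chance alone flags about 1 in 20 such sets, and none of these values was left out.

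In Mx1-Cre PHZ, replicate 5 was high for Uqcrh (719.6, others 594 to 621), Cox7a2 (399, others 340.1 to 357), Atp5f1 (404, others 358 to 365) and Atp5mpl (522, others 388 to 425), and replicate 1 was high for Atp5g2 (363, others 181 to 229.5). Replicate 5 of that group also had the highest granulocyte and monocyte marker mean of the group, 4.66 on the log2 scale. In Mx1-Cre PBS, replicate 5 was high for Sdhd (322, others 278 to 289.6), Uqcrq (345, others 309.9 to 316) and Cox5a (444, others 334 to 357). There, replicate 4 was low for Cyc1 (264, others 308 to 319.9) and high for Cox7a2l (288, others 226 to 235).

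In P95H PHZ, replicate 2 was low for Atp5o (357, others 406 to 425). In P95H PBS, replicate 3 was low for Uqcrb (301, others 377 to 405) and Cox7b (463, others 525 to 544) and high for Uqcrc2 (309.7, others 286 to 292). In the same group, replicate 1 was high for Cox8a (917, others 744 to 783) and Atp5g3 (1069, others 887 to 939), and replicate 2 was low for Atp5d (378, others 411 to 421).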

How the results depend on the processing

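For PHZ against PBS in P95H, 26 subunit genes were called, 14 with the library factor divided out and 6 with the granulocyte marker mean as a covariate. Quantile normalization gave 22 and TMM 26. Uqcrh, Cox6c, Cox7b, Atp5e, Atp5g2 and Atp5j2 were called under every alternative run. Dividing out the factor moved the median of all genes to 0.08 and the subunits' median to -0.10, and turned the split over all genes from 1371 higher and 1923 lower into 2575 higher and 1117 lower. In Mx1-Cre, 12 were called and 5 with the covariate, with splits of 1856 higher and 1618 lower, and 2232 and 1219 with the factor divided out. Uqcrh, Cox6c, Cox7a2l and Atp5e were called under every alternative there.

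For P95H against Mx1-Cre under PHZ, 2 were called. This was 0 with the factor divided out, TMM, quantile normalization, the compared groups alone, no trend or robust moderation, or without P95H PBS replicates 4 and 5, 1 with no filter or with the replicate block, and 4 with library weights. The 1 call with no filter and the 1 with the block were neither Atp5j nor Cox6a1. The split over all genes was 120 higher and 476 lower, and 132 and 145 with the factor divided out, 155 and 190 with TMM and 129 and 163 after quantile normalization. Negative subunit genes numbered 40 on the deposited scale, where 7358 of all 10890 genes were negative, and 29 under each of those scalings. The causes were not tested.

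Leaving out 1 library at a time gave 19 to 29 calls in P95H, 8 to 14 in Mx1-Cre, 0 to 4 between genotypes under PHZ, and 0 under PBS and for the difference of the effects. Whether replicate numbers pair the samples was not settled, because libraries of unlike number were not correlated. Over 30 pairs of like number, correlations of deviations ran from -0.306 to 0.441, with 13 over 0.1. A fit with the number as a block gave 27, 11, 1, 0 and 0 calls in the same order. No called gene changed sign. Without counts, no limit from depth could be given.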
